A study of Mus musculus with 18 samples.

Results

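The response of the mouse ankle joint to monosodium urate (MSU) crystals was compared gene by gene with the response of the spinal cord, in bulk RNA sequencing of whole tissue. The comparison was chosen by sample label alone: it takes the change between MSU and phosphate-buffered saline (PBS) in the ankle and subtracts the same change in the spinal cord. It used 12 of the 18 libraries of the series, 3 in each of 4 groups: ankle with MSU, ankle with PBS, spinal cord with MSU and spinal cord with PBS. Every mouse was of the C57BL/6 strain, with no engineered allele given, and was 10 weeks old. MSU or PBS was injected under the skin in 100 µl at the right ankle, and tissue was taken 8 h later. The controls are titled WT and called untreated in the treatment label, while the protocol states that PBS was injected, and they are taken here as PBS controls. The labels do not say whether an ankle library and a cord library came from the same animal, or whether a library pooled animals, so p-values measure the spread between these libraries, which may be technical. The other 6 libraries, from the dorsal root ganglia, entered 1 alternative fit and the closing section only.

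Total counts per library lay between 11632950 and 25214641 in the ankle MSU libraries and between 13818618 and 38812815 in the ankle PBS libraries, and between 19925823 and 23673373 in the cord MSU libraries and between 13526836 and 20499306 in the cord PBS libraries. The values below are CPM (counts in proportion to the scaled size of the library), given for libraries 1, 2 and 3 in that order. The tissue labels held: 10 spinal neuron markers summed to 3937 to 4591 CPM in the cord MSU libraries and 4298 to 4706 CPM in the cord PBS libraries, and to 1.57 to 2.05 CPM in the ankle MSU libraries and 2.04 to 3.57 CPM in the ankle PBS libraries. The 9 synovial fibroblast markers summed to between 19940 and 30100 CPM in the ankle MSU libraries and between 13200 and 16130 CPM in the ankle PBS libraries. The ankle samples also held keratinocyte transcripts: 13 markers summed to between 6304 and 8875 CPM with MSU and between 15240 and 17120 CPM with PBS. In bulk tissue, fewer cells of a type and less RNA per cell cannot be told apart. Neutrophil markers (16 genes) summed to between 3087 and 5207 CPM in the ankle MSU libraries and between 340.4 and 1281 CPM in the ankle PBS libraries, and to between 116.5 and 291.6 CPM in the cord MSU libraries and between 73.4 and 87.0 CPM in the cord PBS libraries. The part of these cell types in the differences below was not tested.

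Some libraries stood apart from others of their group. Ankle PBS library 2 had a neutrophil marker sum of 1281 CPM, while the other ankle PBS libraries had 340.4 and 462.2 CPM. It also had 183 CPM of Fkbp5, a glucocorticoid-induced co-chaperone of steroid receptors, while the others had 52.0 and 49.8 CPM. Ankle MSU library 1 had 309 CPM of Il1b, while the other ankle MSU libraries had 794 and 1314 CPM. Cord MSU library 2 had the highest astrocyte and oligodendrocyte marker sums of the cord, at 9324 and 24980 CPM. Results that changed when a library was left out are given with that library.

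MSU crystals are the crystals of gout: phagocytes that take them up activate the NLRP3 inflammasome and release interleukin-1, which drives NF-kB signalling, chemokine release and neutrophil entry in the joint. The spinal cord receives the sensory input of the joint and, like the brain, can respond to inflammation elsewhere in the body through its blood vessels and through circulating cytokines and glucocorticoids. Interferons act on cells through receptors whose signal reaches interferon-stimulated response elements in promoters, while NF-kB dimers bind kappaB sites.

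Interferon-stimulated genes and NF-kB genes, whose called differences all ran one way, are shown first by the promoter letters that carry these elements. The stretches are from RefSeq (GRCm38.p6), 100 bases each, on the strand of the gene, with matches to the core motifs in capitals. For the interferon-stimulated response element the letters searched were GAAA, any 2 bases and GAAA, or TTTC, any 2 bases and TTTC on the other strand. Isg15 encodes a ubiquitin-like protein, and Ifit1 and Ifit3 encode antiviral RNA-binding and adaptor proteins.
Isg15, chr4:156200842-156200941, minus strand: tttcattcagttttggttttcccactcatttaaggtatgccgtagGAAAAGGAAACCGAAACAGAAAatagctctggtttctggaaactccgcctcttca
Ifit1, chr19:34640740-34640839, plus strand: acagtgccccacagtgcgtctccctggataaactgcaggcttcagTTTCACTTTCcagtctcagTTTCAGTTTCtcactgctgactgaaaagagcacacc
Ifit3, chr19:34583328-34583427, plus strand: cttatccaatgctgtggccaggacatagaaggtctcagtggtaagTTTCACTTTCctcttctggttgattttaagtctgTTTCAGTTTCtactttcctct

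For the kappaB site the letters searched were GGG, any 3 bases and TTCC, or GGAA, any 3 bases and CCC on the other strand. Tnip1 and Tnfaip3 encode partner proteins that restrain NF-kB signalling, and Nfkbie encodes an inhibitor that holds NF-kB in the cytoplasm.
Tnip1, chr11:54962944-54963043, minus strand: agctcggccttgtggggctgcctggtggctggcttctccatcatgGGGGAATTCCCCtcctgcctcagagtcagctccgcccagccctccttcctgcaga
Tnfaip3, chr10:19015368-19015467, minus strand: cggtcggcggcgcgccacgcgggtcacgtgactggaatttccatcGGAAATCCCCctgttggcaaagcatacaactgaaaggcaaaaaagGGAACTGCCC
Nfkbie, chr17:45555549-45555648, plus strand: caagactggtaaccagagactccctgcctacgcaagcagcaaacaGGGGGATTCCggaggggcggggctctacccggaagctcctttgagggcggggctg

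The promoter table holds 250 bases before to 50 bases after each start site, for 27025 genes, and matches to the motifs can overlap. The interferon element core was found in 11 of the 19 interferon-stimulated genes with a promoter in the table (57.9%), against 3.99% of all 27025 genes and 3.81% of the 13953 tested genes with a promoter. Among the genes with a higher response in the ankle it was found in 7.03% of 1594, and among those with a lower response in 3.02% of 2217. The kappaB letters were found in 7 of 15 NF-kB genes (46.7%), against 6.31% of all genes and 7.17% of the tested genes with a promoter. They were found in 9.16% of the genes with a higher and 6.18% of the genes with a lower response in the ankle. Among the interferon-stimulated genes, 10 of 11 with the core and 8 of 8 without it had a higher response in the ankle. Among the NF-kB genes, 6 of 7 with the kappaB letters and 4 of 8 without them did. The kappaB letters were also found in 4 of the 19 interferon-stimulated genes (21.1%). A match is a description of these letters and not a measured binding site, and its part in the differences was not tested.

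Across the whole genome the ankle response was much the wider of the pair. Of 20243 genes tested, edgeR called 8807 changed in the ankle (43.5%), with 4269 risen (21.1%) and 4538 fallen (22.4%). In the cord it called 1147 (5.67%), with 892 risen (4.41%) and 255 fallen (1.26%). These calls come from 1 fit that shares its dispersions between the tissues. Fitted alone, the cord had 980 risen and 712 fallen of 17507 genes, and the ankle 3823 risen and 3833 fallen of 17690. The number of cord calls, and of cord falls above all, therefore depends on the fit. The 3 MSU and 3 PBS libraries did not overlap for 10325 genes in the ankle (51%) and for 5511 genes in the cord (27.2%). The median size of the log2 change was 0.49 in the ankle and 0.19 in the cord, with median SEs of 0.19 and 0.18.

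The test of the difference itself called 5037 genes (24.9%). For 2062 of them (10.2%) the log2 change was higher in the ankle, and for 2975 (14.7%) it was lower. Over all genes tested the median difference was -0.10. With scaling inside each tissue alone it was -0.04, with 2351 higher and 2642 lower genes, so the imbalance depends in part on the scaling. Other scalings over both tissues gave 2113 to 2165 higher and 2860 to 2907 lower genes. Most of the 2062 were genes that rose in the ankle (1920), and 1806 of these were not called in the cord. Most of the 2975 fell in the ankle (2585), and 2448 of these were not called in the cord. A difference of at least 2-fold was found for 849 of the higher and 1597 of the lower genes. The shares of 10.2% and 14.7% are the background for the list counts below.

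The cord calls were not a subset of the ankle calls. Of the 1147 genes called in the cord, 778 were also called in the ankle: 511 rose in both, 126 fell in both and 141 went opposite ways. Of the 511, the difference was called for 131, with 89 higher in the ankle and 42 higher in the cord, and it was not called for 380. A further 369 cord genes were not called in the ankle, and for 230 of these the difference was called. For 349 genes the cord change was called, larger in size than that of the ankle, and different from it.

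**Figure D1:**
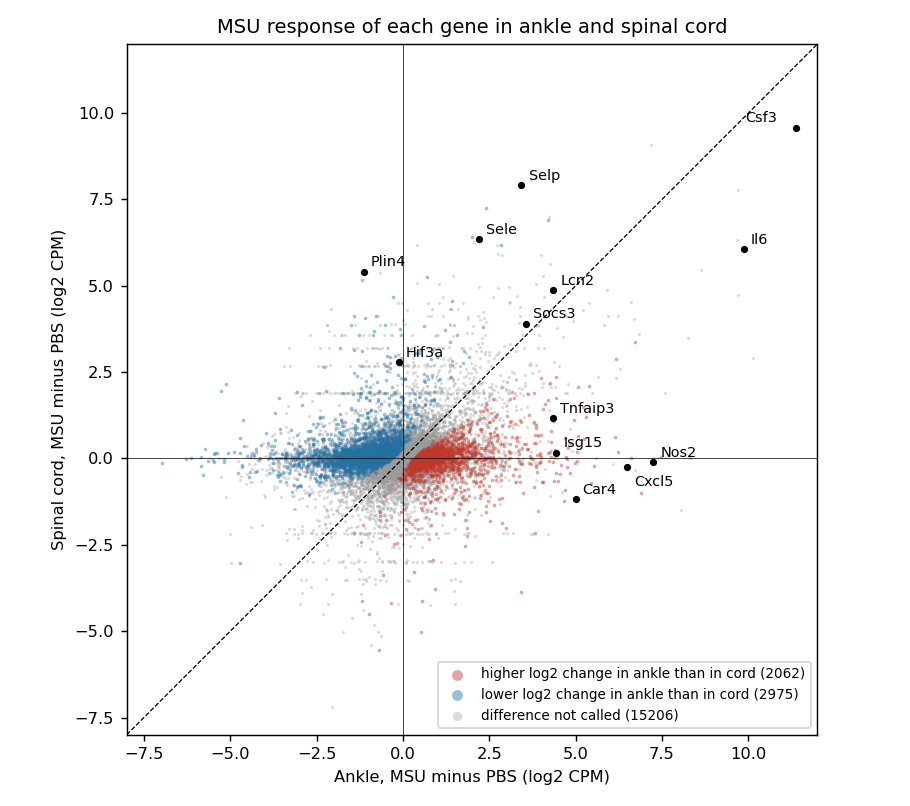
The log2 change with MSU in the ankle (x axis) is plotted against that in the spinal cord (y axis) for each of the 20243 genes tested, coloured by the call on the difference, with the dashed line at equal change. Most called genes lie along the horizontal line at 0 in the cord, while Plin4, Selp, Sele and Hif3a lie far above the dashed line and Socs3 and Lcn2 near it.

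Interferon-stimulated genes differed nearly all one way. All 24 tested members rose in the ankle, where 21.1% of all genes did, and 2 rose in the cord, where 4.41% of all genes did (1 without any 1 of the 6 cord libraries). The response was higher in the ankle for 21 of the 24, against 10.2% of all genes, and lower for none, against 14.7%. Their median difference was 2.53, against -0.10 over all genes. Isg15 (ENSMUSG00000035692) had 56.1, 132 and 152 CPM in the ankle MSU libraries and 7.30, 4.65 and 3.09 CPM in the ankle PBS libraries. It had 3.49, 4.87 and 2.70 CPM in the cord MSU libraries and 3.03, 4.01 and 2.78 CPM in the cord PBS libraries. The ankle groups were far apart and the cord groups overlapped (log2 difference 4.27, SE 0.64, edgeR adjusted p = 0.00107).

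Gbp3, a guanylate-binding protein gene of host defence, had 107, 121 and 145 CPM in the ankle MSU libraries and 27.04, 13.1 and 17.5 CPM in the ankle PBS libraries. In the cord it had 5.71, 7.45 and 8.01 CPM in the cord MSU libraries and 10.5, 10.9 and 8.93 CPM in the cord PBS libraries, where MSU libraries lay below PBS libraries (log2 difference 3.20, SE 0.33, edgeR adjusted p = 3.98e-05). The cord change of Gbp3 did not pass (adjusted p = 0.297). Mx2, an antiviral GTPase gene, had log2 changes of 2.53 in the ankle and 0.03 in the cord (log2 difference 2.49, SE 0.33, edgeR adjusted p = 0.000113). Ifi44, an interferon-induced gene, had log2 changes of 3.35 and -0.08 in the ankle and the cord (log2 difference 3.43, SE 0.53, edgeR adjusted p = 0.000342). Stat2, the transcription factor that carries the interferon signal, rose 2.65-fold in the ankle, with 171, 198 and 177 CPM in the ankle MSU libraries and 78.8, 61.2 and 65.9 CPM in the ankle PBS libraries. Its cord libraries did not overlap either, with 41.2, 42.5 and 43.2 CPM in the cord MSU libraries and 33.4, 33.2 and 28.8 CPM in the cord PBS libraries, but its cord log2 change of 0.41 did not keep its call when 1 library was left out (highest adjusted p = 0.131).

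NF-kB subunits and the genes that feed back on NF-kB formed the next group. All 18 tested members rose in the ankle and 10 rose in the cord, against 21.1% and 4.41% of all genes. For 13 the response was higher in the ankle and for none lower, against 10.2% and 14.7% of all genes. Their median difference was 1.35. Tnfaip3 (ENSMUSG00000019850) had 334, 557 and 622 CPM in the ankle MSU libraries and 24.2, 25.97 and 24.5 CPM in the ankle PBS libraries. It had 12.9, 13.7 and 9.77 CPM in the cord MSU libraries and 5.76, 5.52 and 4.80 CPM in the cord PBS libraries. It rose in both tissues, 20.3-fold in the ankle and 2.24-fold in the cord (log2 difference 3.18, SE 0.30, edgeR adjusted p = 2.25e-05). Tnip1 had 225, 264 and 242 CPM in the ankle MSU libraries and 51.3, 45.1 and 40.5 CPM in the ankle PBS libraries. In the cord it had 54.3, 53.8 and 52.99 CPM in the cord MSU libraries and 44.2, 40.6 and 39.9 CPM in the cord PBS libraries, a separation of small size, and its cord call was lost when 1 library was left out (log2 0.37, highest adjusted p = 0.135). The difference for Tnip1 was 2.04 (SE 0.14, edgeR adjusted p = 5.36e-07). Nfkbie had log2 changes of 2.20 in the ankle and 0.15 in the cord (log2 difference 2.05, SE 0.22, edgeR adjusted p = 2.63e-05). Rel, the gene of the NF-kB subunit c-Rel, had log2 changes of 1.69 and 0.10 in the ankle and the cord (log2 difference 1.59, SE 0.17, edgeR adjusted p = 2.73e-05).

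For 5 members the difference was not called. Nfkbia, the gene of the inhibitor IkB-alpha, rose 6.19-fold in the ankle and 3.92-fold in the cord, with a log2 difference of 0.66 (95% interval 0.11 to 1.21, adjusted p = 0.0789). Without ankle PBS library 2 or ankle MSU library 1 that difference passed the test (adjusted p = 0.0116 and 0.0347). Bcl3, a nuclear partner of NF-kB, rose with a like size in both tissues and is described with the shared genes.

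**Figure D2:**
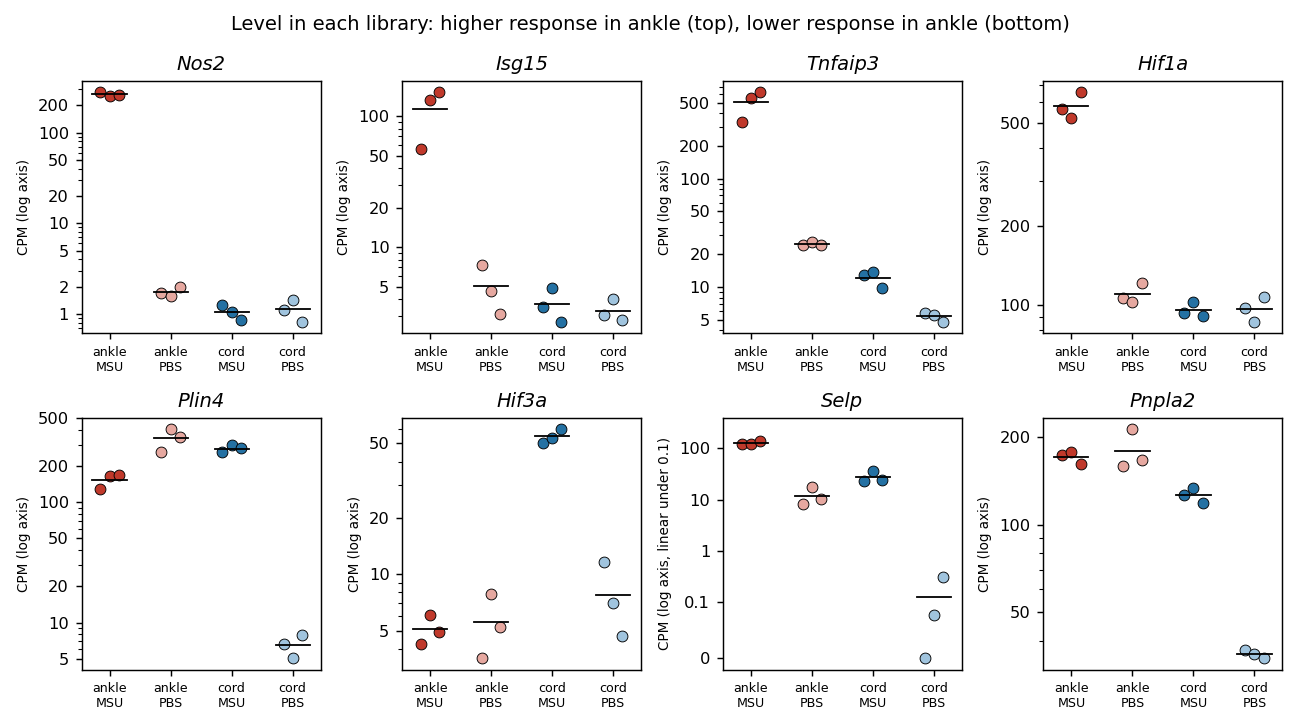
CPM in each library (points, log axes, linear under 0.1 for Selp; lines are group means) are shown for 4 genes with a higher response in the ankle (Nos2, Isg15, Tnfaip3, Hif1a) and 4 with a lower response (Plin4, Hif3a, Selp, Pnpla2), with MSU left of PBS in each tissue. In the top panels the ankle MSU libraries stand above all others, and in the bottom panels the cord MSU libraries stand above the cord PBS libraries.

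Enzymes and receptors of inflamed tissue were among the 12 largest positive differences of called genes with a group mean of at least 1 CPM in each tissue, a limit that leaves out Cxcl5 (log2 difference 6.73). Nos2 (ENSMUSG00000020826), the inducible nitric oxide synthase, had 276, 252 and 262 CPM in the ankle MSU libraries and 1.72, 1.58 and 1.97 CPM in the ankle PBS libraries. It had 1.27, 1.04 and 0.855 CPM in the cord MSU libraries and 1.11, 1.44 and 0.826 CPM in the cord PBS libraries. The ankle groups were 151-fold apart and the cord groups overlapped (log2 difference 7.34, SE 0.28, edgeR adjusted p = 3.4e-09). Arg2, the mitochondrial arginase, which uses the same substrate, had log2 changes of 4.35 in the ankle and -0.09 in the cord (log2 difference 4.43, SE 0.49, edgeR adjusted p = 2.94e-05). Fpr1, the neutrophil receptor for formyl peptides, had 50.5, 86.7 and 92.997 CPM in the ankle MSU libraries and 2.06, 3.003 and 0.722 CPM in the ankle PBS libraries. In the cord it had 1.27, 1.10 and 0.946 CPM in the cord MSU libraries and 0.455, 1.06 and 0.826 CPM in the cord PBS libraries, with overlap (log2 difference 4.67, SE 0.73, edgeR adjusted p = 0.000783). Ccrl2, a chemerin-binding receptor, had 35.3, 138 and 133 CPM in the ankle MSU libraries and 2.95, 3.72 and 2.43 CPM in the ankle PBS libraries, with ankle MSU library 1 the lowest of the MSU libraries. Its cord groups overlapped, and its difference (log2 difference 5.12, SE 0.87, edgeR adjusted p = 0.00243) was not called by limma-voom.

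The remaining genes among these 12 were of varied function. Rnd1, a small GTPase gene, had 107, 99.4 and 134 CPM in the ankle MSU libraries and 3.52, 3.72 and 2.63 CPM in the ankle PBS libraries. It had 65.2, 62.7 and 51.2 CPM in the cord MSU libraries and 40.05, 36.2 and 37.01 CPM in the cord PBS libraries, and it rose in both tissues, more so in the ankle (log2 difference 4.42, SE 0.20, edgeR adjusted p = 1.85e-08). Cdhr1, a cadherin-related gene, had a log2 difference of 4.23 and cord CPM that overlapped. Slc39a12, Garem2 and Dbx2, with log2 differences of 4.67, 4.33 and 4.28, are transcripts of high level in the cord and of few counts in the ankle. Slc39a12, a zinc transporter gene, had 102 counts over the 3 ankle MSU libraries and 6 over the ankle PBS libraries. Garem2 had 74 counts with MSU and 5 with PBS, and Dbx2, a homeobox gene, 94 with MSU and 8 with PBS. The fitted sizes of these 3 differences therefore depend on the prior count. Car4 and Adamts4, also among the 12, are described with the genes of their groups.

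Among 10 tested neutrophil chemoattractants and their receptors and growth factors, 9 rose in the ankle and 5 in the cord. Of all genes, 21.1% rose in the ankle and 4.41% in the cord. The response was higher in the ankle for 2, Cxcl5 and Csf3r, and lower for 1, Csf2rb, with a median difference of 1.61, and 7 were not called. Over all genes 10.2% were higher and 14.7% lower. Cxcl5 (ENSMUSG00000029371), a CXC chemokine, had 276, 296 and 459.9 CPM in the ankle MSU libraries and 5.17, 3.23 and 2.50 CPM in the ankle PBS libraries. It had 0.688, 0.821 and 0.63 CPM in the cord MSU libraries and 1.06, 0.757 and 0.601 CPM in the cord PBS libraries, with overlap (log2 difference 6.73, SE 0.65, edgeR adjusted p = 3.73e-05). Cxcl1, a chemokine for the same receptor, had 345, 403 and 713 CPM in the ankle MSU libraries and 3.06, 4.69 and 2.04 CPM in the ankle PBS libraries. In the cord it had 60.99, 62.4 and 25.3 CPM in the cord MSU libraries and 0.151, 0.0757 and 0 CPM in the cord PBS libraries, and there too every MSU library was above every PBS library. The cord PBS libraries held 4 Cxcl1 counts in all, and the difference was not called (-1.89, SE 1.57, 95% interval -5.45 to 1.67, adjusted p = 0.439). That interval is wider than the SEs of 0.53 in the ankle and 0.84 in the cord imply.

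Csf3, the growth factor gene of neutrophil production, was induced in both tissues. It had 143, 182 and 282 CPM in the ankle MSU libraries and 0.0907, 0.0751 and 0 CPM in the ankle PBS libraries. It had 65.1, 66.3 and 32.4 CPM in the cord MSU libraries and 0, 0 and 0.225 CPM in the cord PBS libraries. The cord held 3160 counts with MSU and 3 with PBS, a ratio of 822 (95% interval 281 to 3988, counting error only). The difference between tissues was 1.80 (SE 2.34, 95% interval -3.45 to 7.06, adjusted p = 0.642). That interval is wider than the SEs of 0.63 in the ankle and 0.70 in the cord imply. Csf3r, the receptor of its product, rose in both tissues, with log2 changes of 2.87 in the ankle and 0.94 in the cord (log2 difference 1.93, SE 0.24, edgeR adjusted p = 0.000106). Csf2rb, the shared receptor subunit for GM-CSF and interleukins 3 and 5, had 212, 266 and 261 CPM in the ankle MSU libraries and 55.1, 84.2 and 56.2 CPM in the ankle PBS libraries. It had 11.6, 15.2 and 10.9 CPM in the cord MSU libraries and 1.51, 1.82 and 1.58 CPM in the cord PBS libraries, and its rise was larger in the cord (log2 difference -1.03, SE 0.29, edgeR adjusted p = 0.0194), though not called without cord PBS library 1 (adjusted p = 0.0614) or by limma-voom (adjusted p = 0.189). Cxcr2, the chemokine receptor of neutrophils, had a log2 difference of 1.43 (95% interval -0.60 to 3.45, adjusted p = 0.295).

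Of 18 monocyte and lymphocyte chemokines and receptors, 6 had a higher response in the ankle and 2 a lower one, against 10.2% and 14.7% of all genes. Their median difference was 0.74. Without cord PBS library 3 the 6 became 2, and the 2 became 1 without that library, cord PBS library 1, cord MSU library 2 or any ankle MSU library. Ccl2, the main monocyte chemokine, rose in the ankle, with 87.3, 137 and 171 CPM in the ankle MSU libraries and 11.6, 4.43 and 7.35 CPM in the ankle PBS libraries. In the cord it had 1.43, 2.46 and 1.85 CPM in the cord MSU libraries and 0, 0.681 and 0.751 CPM in the cord PBS libraries, from 113 counts with MSU and 19 with PBS, and neither the cord change (adjusted p = 0.207) nor the difference (adjusted p = 0.271) passed. Ccl5, a T cell chemokine, had log2 changes of 3.86 in the ankle and 0.87 in the cord (log2 difference 2.99, SE 0.74, edgeR adjusted p = 0.0107), which was not called without cord PBS library 1 (adjusted p = 0.143). Ccl7 had log2 changes of 4.07 and 1.44 in the ankle and the cord (log2 difference 2.62, SE 0.64, edgeR adjusted p = 0.0112), not called without cord PBS library 3 (adjusted p = 0.0653). Monocyte and macrophage markers (13 genes) summed to between 1887 and 2406 CPM in the ankle MSU libraries and between 1696 and 1999 CPM in the ankle PBS libraries. In the cord they summed to between 300 and 463.8 CPM with MSU and between 185.8 and 236.5 CPM with PBS, and their part in these results was not tested.

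Ccl11 and Cxcl12 were called in the cord and not in the ankle. Ccl11, the eosinophil chemokine eotaxin, had 55.4, 53.8 and 62.5 CPM in the ankle MSU libraries and 30.9, 26.3 and 38.2 CPM in the ankle PBS libraries. It had 14.5, 44.7 and 28.95 CPM in the cord MSU libraries and 2.02, 3.71 and 4.65 CPM in the cord PBS libraries, so that its cord groups were further apart than its ankle groups (log2 difference -2.27, SE 0.55, edgeR adjusted p = 0.013; not called by limma-voom). Cxcl12, a chemokine that holds leukocytes in tissue, had 2036, 1476 and 1121 CPM in the ankle MSU libraries and 1087, 1302 and 1065 CPM in the ankle PBS libraries, with overlap. It had 26.6, 39.5 and 34.9 CPM in the cord MSU libraries and 78.4, 53.6 and 61.04 CPM in the cord PBS libraries, with every MSU library below every PBS library (log2 difference 1.36, SE 0.30, edgeR adjusted p = 0.00597). Its cord call was lost in 4 of the 12 fits that left out a library (highest adjusted p = 0.111).

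Interleukin-1 genes differed in part. Of 18 tested interleukin-1 and inflammasome genes, 4 had a higher response in the ankle and 1, Pycard, a lower one (2 without ankle MSU library 1 or 2, 3 without cord MSU library 1). Over all genes 10.2% were higher and 14.7% lower. The median difference of the 18 was 0.49. Nlrp3 (ENSMUSG00000032691), the inflammasome sensor for urate crystals, had 62.4, 187 and 219 CPM in the ankle MSU libraries and 4.74, 3.94 and 2.95 CPM in the ankle PBS libraries. It had 2.06, 2.68 and 1.58 CPM in the cord MSU libraries and 0.808, 0.832 and 1.13 CPM in the cord PBS libraries. All MSU libraries were above all PBS libraries in both tissues, by more in the ankle (log2 difference 4.10, SE 0.89, edgeR adjusted p = 0.00882), and the difference was not called by limma-voom or without cord libraries 3. The cord change of Nlrp3 did not pass (adjusted p = 0.414). Il1rap, the accessory chain of the interleukin-1 receptor, had log2 changes of 1.38 in the ankle and -0.13 in the cord (log2 difference 1.51, SE 0.20, edgeR adjusted p = 9.86e-05). Il33, an alarmin of the interleukin-1 family, had 72.9, 69.6 and 120.2 CPM in the ankle MSU libraries and 25.4, 23.98 and 36.8 CPM in the ankle PBS libraries. It had 86.1, 115 and 98.3 CPM in the cord MSU libraries and 143, 136 and 135 CPM in the cord PBS libraries, with the MSU libraries below the PBS libraries (log2 difference 2.08, SE 0.30, edgeR adjusted p = 0.000483), although the cord change did not pass (adjusted p = 0.268). Il18bp, which neutralizes interleukin-18, had a log2 difference of 1.43, and Pycard, the inflammasome adaptor, one of -1.24.

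Il1b, the cytokine that the inflammasome matures, had 309, 794 and 1314 CPM in the ankle MSU libraries and 10.3, 9.46 and 11.1 CPM in the ankle PBS libraries. It had 2.27, 5.80 and 1.89 CPM in the cord MSU libraries and 0.606, 0.454 and 0.526 CPM in the cord PBS libraries. The ratio was larger in the ankle, but the log2 difference of 3.71 (95% interval 0.46 to 6.95) had an adjusted p of 0.0955. Without ankle MSU library 1, the lowest of its group, it passed (adjusted p = 0.0148). Il1r1, the receptor for interleukin-1, rose in both tissues by like amounts on the log2 scale, 1.81 in the ankle and 1.74 in the cord, with a 95% interval of the difference of -0.42 to 0.58.

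Among 17 genes of the interleukin-6 family and JAK-STAT feedback, 3 responses were higher and 2 lower in the ankle, against 10.2% and 14.7% of all genes. Their median difference was 0.44. Il6 rose in both tissues, with 318, 268 and 526 CPM in the ankle MSU libraries and 0.431, 0.413 and 0.263 CPM in the ankle PBS libraries. It had 1.75, 2.85 and 1.08 CPM in the cord MSU libraries and 0, 0.0757 and 0 CPM in the cord PBS libraries. Here 109 cord counts with MSU stood against 1 with PBS, a ratio of 85.1 (95% interval 14.9 to 3390, counting error only). The test did not call the difference between tissues (log2 difference 3.79, edgeR adjusted p = 0.532). With an SE of 3.84, its 95% interval was -4.74 to 12.33. That is wider than the SEs of 0.43 in the ankle and 1.06 in the cord imply, and is not read as a range. The cord rise of Il6 was not called without cord PBS library 1 (adjusted p = 0.0512). Lif, another cytokine of the family, had 107, 140.3 and 158 CPM in the ankle MSU libraries and 3.42, 2.78 and 3.55 CPM in the ankle PBS libraries. It had 2.17, 6.84 and 4.46 CPM in the cord MSU libraries and 0.808, 1.06 and 1.35 CPM in the cord PBS libraries and a higher response in the ankle (log2 difference 3.29, SE 0.56, edgeR adjusted p = 0.00154), and its cord call was lost without cord PBS library 1 or 2 (highest adjusted p = 0.0777). Stat3, the transcription factor of these cytokines, rose in both tissues, by 1.68 on the log2 scale in the ankle and 0.98 in the cord (log2 difference 0.70, SE 0.15, edgeR adjusted p = 0.00432).

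The 2 members with lower ankle responses, a share near the 14.7% of all genes, were the receptor genes Il6ra and Il11ra1. Il6ra, the interleukin-6 receptor, had 83.6, 95.5 and 119 CPM in the ankle MSU libraries and 76.2, 107 and 83.1 CPM in the ankle PBS libraries, with overlap. It had 16.4, 19.1 and 20.5 CPM in the cord MSU libraries and 6.51, 6.43 and 7.13 CPM in the cord PBS libraries, and it rose in the cord (log2 difference -1.32, SE 0.22, edgeR adjusted p = 0.000545). Il11ra1, the interleukin-11 receptor, had log2 changes of -0.35 in the ankle and 0.30 in the cord (log2 difference -0.66, SE 0.12, edgeR adjusted p = 0.00123). Socs3, the feedback inhibitor induced by STAT3, had 736, 818 and 1100.1 CPM in the ankle MSU libraries and 63.8, 97.8 and 62.4 CPM in the ankle PBS libraries. It had 46.7, 56.8 and 59.7 CPM in the cord MSU libraries and 3.69, 4.39 and 2.85 CPM in the cord PBS libraries, and it rose 11.8-fold in the ankle and 14.9-fold in the cord (log2 difference -0.33, 95% interval -1.001 to 0.34, adjusted p = 0.485). Osmr, the oncostatin M receptor, rose in both, with a log2 difference of -0.48 (95% interval -1.03 to 0.07) that passed without cord MSU library 1 (adjusted p = 0.0191).

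Acute phase genes rose widely in both tissues. Of 17 tested, 15 rose in the ankle and 12 in the cord, against 21.1% and 4.41% of all genes. All 12 also rose in the ankle. Only 2 responses were called higher in the ankle, Ptx3 and Slc39a14 (4 without cord MSU library 2), and 1 lower (2 without cord MSU library 1), Serpina3f, which was not called without cord PBS library 1, cord PBS library 3, cord MSU library 2 or cord MSU library 3. The share of higher responses was near the 10.2% of all genes, and 14.7% of all genes were lower. A single member had an interval of the difference inside 2-fold, so like size was not shown for the rest. Lcn2, the gene of the iron-sequestering protein lipocalin-2, had 1180.1, 1265 and 1588 CPM in the ankle MSU libraries and 29.1, 134 and 34.6 CPM in the ankle PBS libraries. It had 270.5, 304 and 256 CPM in the cord MSU libraries and 7.73, 11.5 and 9.16 CPM in the cord PBS libraries. It rose 20.3-fold in the ankle and 29.4-fold in the cord (log2 difference -0.53, 95% interval -2.26 to 1.19, adjusted p = 0.677).

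Saa3, a serum amyloid A gene, had 2602, 2007 and 2902 CPM in the ankle MSU libraries and 4.40, 3.08 and 0.722 CPM in the ankle PBS libraries. It had 15.7, 33.7 and 11.8 CPM in the cord MSU libraries and 0, 0.227 and 0.0751 CPM in the cord PBS libraries, with 4 counts in all cord PBS libraries. The difference was not called (SE 2.73, 95% interval -4.26 to 8.11, adjusted p = 0.677). That interval is wider than the SEs of 0.66 in the ankle and 0.998 in the cord imply. Ptx3, a pattern recognition protein of the pentraxin family, had 688, 463 and 679 CPM in the ankle MSU libraries and 5.51, 5.48 and 6.70 CPM in the ankle PBS libraries. It had 11.002, 30.1 and 18.7 CPM in the cord MSU libraries and 1.92, 0.832 and 3.003 CPM in the cord PBS libraries, with a rise in both that was larger in the ankle (log2 difference 3.34, SE 0.64, edgeR adjusted p = 0.00479). Slc39a14, a zinc and iron importer, had 1262, 1174 and 1494 CPM in the ankle MSU libraries and 69.6, 124 and 87.8 CPM in the ankle PBS libraries. It had 71.1, 104 and 88.3 CPM in the cord MSU libraries and 44.2, 41.2 and 41.1 CPM in the cord PBS libraries and likewise rose in both (log2 difference 2.75, SE 0.27, edgeR adjusted p = 2.25e-05). Serpina3f, a serine protease inhibitor gene, had 196 cord counts with MSU and 1 with PBS, a ratio of 153 (95% interval 27.1 to 6072), and its ankle minus cord log2 difference was -2.70 (edgeR adjusted p = 0.0336). Orm1, an orosomucoid gene, had no counts in the cord PBS libraries and a difference that did not pass (adjusted p = 0.0778; 0.0423 and 0.0184 without cord MSU library 1 or 3).

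Neutrophil alarmins gave wide intervals. S100a8 had 469, 515 and 697 CPM in the ankle MSU libraries and 44.1, 173 and 53.2 CPM in the ankle PBS libraries. It had 37.3, 44.1 and 12.02 CPM in the cord MSU libraries and 8.53, 8.17 and 11.3 CPM in the cord PBS libraries. The log2 difference was 0.90 (95% interval -1.11 to 2.92, adjusted p = 0.521). S100a9, its partner in calprotectin, had a log2 difference of 1.02 (adjusted p = 0.434), which passed without ankle PBS library 2 (adjusted p = 0.0455).

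Most genes of hypoxia and glycolysis rose in the ankle. Of 19 tested, 13 rose in the ankle and 2 in the cord (1 without cord PBS library 1 or cord MSU library 2). Of all genes, 21.1% rose in the ankle and 4.41% in the cord. The response was higher in the ankle for 11 and lower for none (2 lower without ankle MSU library 1), against 10.2% and 14.7% of all genes. Their median difference was 0.58. Hif1a (ENSMUSG00000021109), the hypoxia-inducible transcription factor, had 567, 521 and 654 CPM in the ankle MSU libraries and 107, 103 and 121 CPM in the ankle PBS libraries. It had 92.7, 103 and 90.6 CPM in the cord MSU libraries and 96.9, 86.2 and 107 CPM in the cord PBS libraries, with overlap (log2 difference 2.42, SE 0.16, edgeR adjusted p = 4.71e-07). Pfkfb3, a driver of glycolysis, had log2 changes of 2.93 in the ankle and 0.36 in the cord (log2 difference 2.58, SE 0.17, edgeR adjusted p = 4.71e-07). Pgk1, a glycolytic enzyme, had log2 changes of 1.02 and 0.14 in the ankle and the cord (log2 difference 0.88, SE 0.12, edgeR adjusted p = 0.000111). Vegfa, the vascular growth factor, was called in opposite directions and is described with those genes.

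Among 16 matrix proteases and inhibitors, 7 responses were higher and 3 lower in the ankle, against 10.2% and 14.7% of all genes. Their median difference was 1.01. Adamts4 (ENSMUSG00000006403), which cleaves the cartilage proteoglycan aggrecan, had 157, 167 and 232 CPM in the ankle MSU libraries and 5.22, 6.94 and 5.52 CPM in the ankle PBS libraries. It had 68.9, 87.01 and 76.4 CPM in the cord MSU libraries and 75.8, 84.4 and 93.7 CPM in the cord PBS libraries. The cord groups overlapped at a level well above that of the ankle PBS libraries (log2 difference 5.10, SE 0.23, edgeR adjusted p = 2.51e-08). Timp1, an inhibitor of matrix metalloproteinases, had 476, 474 and 596 CPM in the ankle MSU libraries and 20.96, 29.2 and 21.6 CPM in the ankle PBS libraries. It had 8.57, 5.97 and 4.14 CPM in the cord MSU libraries and 1.36, 0.984 and 1.20 CPM in the cord PBS libraries, and it rose in both tissues (log2 difference 2.07, SE 0.40, edgeR adjusted p = 0.0028). Timp2 and Timp3, inhibitors of the same family, fell in the ankle by 0.99 and 0.98 on the log2 scale, with cord changes of 0.12 and 0.00 and log2 differences of -1.11 (adjusted p = 0.000237) and -0.98 (adjusted p = 0.000116).

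**Figure D3:**
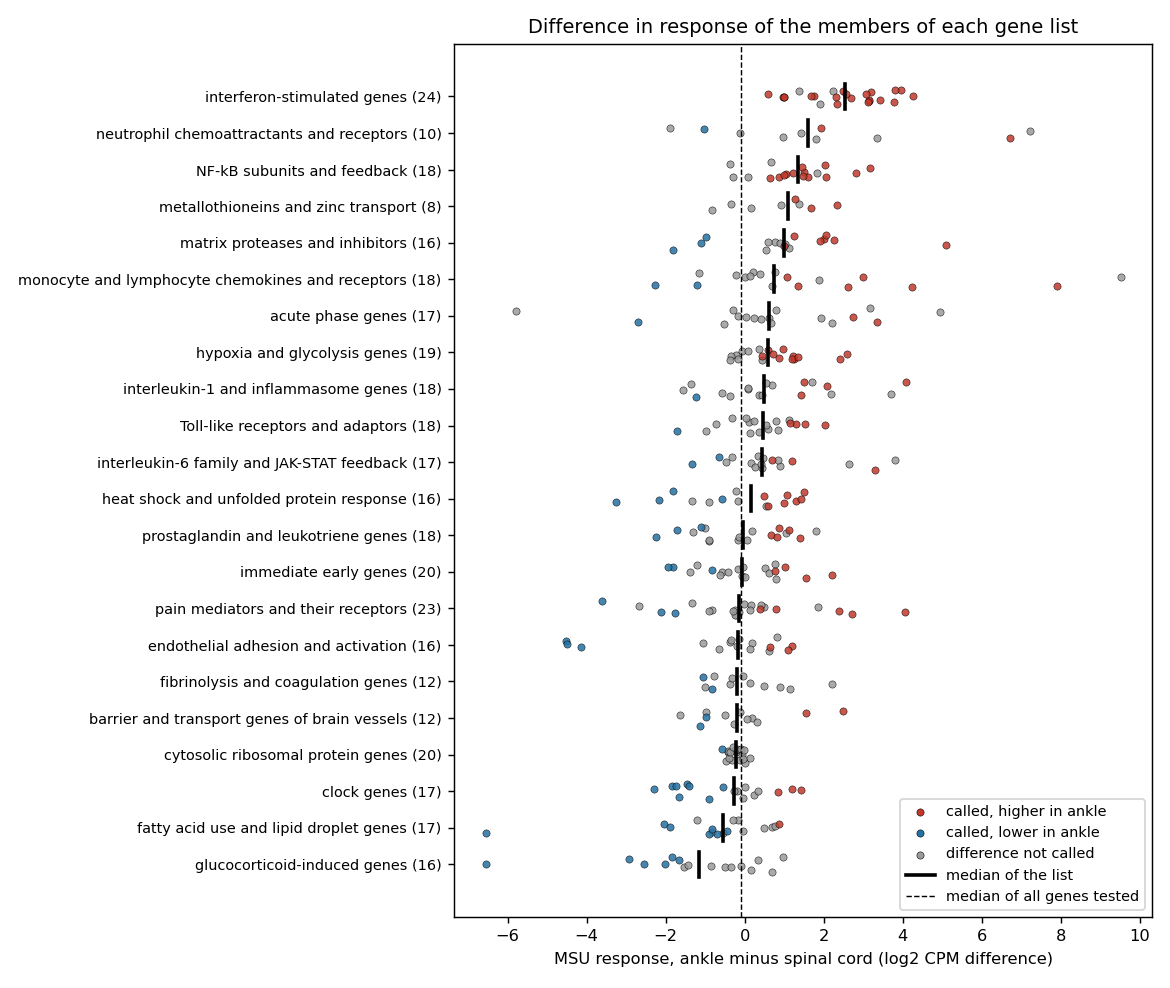
Each point is a tested member of 1 of 22 gene lists, placed by the difference between its log2 change in the ankle and in the spinal cord, with list medians as bars and the median of all genes tested (-0.10) as a dashed line. Interferon-stimulated genes lie highest, with a median of 2.53, and glucocorticoid-induced genes lowest, with a median of -1.15.

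Glucocorticoid-induced genes stood at the other end of the lists. Of 16 tested, 9 rose and 1 fell in the ankle, where 21.1% and 22.4% of all genes did. In the cord 10 rose, against 4.41% of all genes. Every cord MSU library was above every cord PBS library for all 16, against 18.1% of all genes. The response was lower in the ankle for 6 and higher for none, against 14.7% and 10.2% of all genes, with a median difference of -1.15. Without ankle PBS library 2, which had more Fkbp5, Sgk1 and Zbtb16 than the other ankle PBS libraries, 2 were higher. Without ankle PBS library 1, 2 members were called fallen in the ankle. Hif3a (ENSMUSG00000004328), a hypoxia-inducible factor gene that glucocorticoids also induce, had 4.26, 6.08 and 4.90 CPM in the ankle MSU libraries and 3.56, 7.81 and 5.25 CPM in the ankle PBS libraries. It had 50.5, 53.8 and 59.6 CPM in the cord MSU libraries and 11.6, 7.04 and 4.65 CPM in the cord PBS libraries, and it rose in the cord and was not called in the ankle (adjusted p = 0.795; log2 difference -2.92, SE 0.46, edgeR adjusted p = 0.000701).

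Arrdc2, an arrestin-domain gene, had 28.98, 29.8 and 38.4 CPM in the ankle MSU libraries and 34.6, 39.3 and 32.6 CPM in the ankle PBS libraries. It had 97.2, 112 and 95.1 CPM in the cord MSU libraries and 17.2, 18.4 and 21.5 CPM in the cord PBS libraries. It too rose in the cord without overlap and was not called in the ankle (log2 difference -2.55, SE 0.18, edgeR adjusted p = 1.33e-06). Sult1a1, a sulfotransferase gene, had log2 changes of -0.39 in the ankle and 1.28 in the cord (log2 difference -1.67, SE 0.25, edgeR adjusted p = 0.000353). Cdkn1a, the cell cycle inhibitor p21, had 234, 299.6 and 374 CPM in the ankle MSU libraries and 163, 253 and 180.4 CPM in the ankle PBS libraries. It had 163, 187 and 146 CPM in the cord MSU libraries and 27.5, 24.3 and 39.5 CPM in the cord PBS libraries and rose in the cord (log2 difference -1.84, SE 0.32, edgeR adjusted p = 0.00155), while its ankle groups overlapped and its ankle call was lost in 8 of the 12 fits that left out a library (highest adjusted p = 0.171). Sgk3, a kinase gene related to Sgk1, is not a member of this list and was named for its larger cord change. It had log2 changes of 0.07 and 2.30 in the ankle and the cord (log2 difference -2.23, SE 0.18, edgeR adjusted p = 2.85e-06).

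The classical marker genes of glucocorticoid action did not differ by the test, with wide intervals. Fkbp5 had 272, 297 and 318 CPM in the ankle MSU libraries and 52.03, 183 and 49.8 CPM in the ankle PBS libraries. It had 147, 172 and 148 CPM in the cord MSU libraries and 28.6, 28.1 and 25.9 CPM in the cord PBS libraries. Its log2 difference was -0.86 (95% interval -2.30 to 0.58, adjusted p = 0.378), and its cord call was lost without cord MSU library 2 or any 1 of the cord PBS libraries (highest adjusted p = 0.0758). Sgk1, a kinase of salt handling, had 435, 402 and 476 CPM in the ankle MSU libraries and 135, 304 and 199 CPM in the ankle PBS libraries. It had 432, 507 and 409 CPM in the cord MSU libraries and 44.5, 45.7 and 137 CPM in the cord PBS libraries, with cord PBS library 3 the highest of its group. Its log2 difference was -1.53 (adjusted p = 0.116) and passed without that library (adjusted p = 0.00161). Zbtb16, a transcription factor gene that glucocorticoids induce, had 62.1, 83.4 and 113 CPM in the ankle MSU libraries and 18.3, 97.7 and 13.3 CPM in the ankle PBS libraries, with ankle PBS library 2 among the MSU libraries. It had 96.1, 102 and 109 CPM in the cord MSU libraries and 19.9, 19.9 and 17.1 CPM in the cord PBS libraries and a log2 difference of -1.44 (95% interval -3.60 to 0.71, adjusted p = 0.319). Its change was called in neither tissue, except without ankle PBS library 2 (adjusted p = 7.44e-06 in the ankle and 1.89e-05 in the cord).

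Plin4 (ENSMUSG00000002831), which encodes a coat protein of lipid droplets and is induced by glucocorticoids, had the most negative difference of the named genes. It had 128, 165 and 168 CPM in the ankle MSU libraries and 262, 403 and 348 CPM in the ankle PBS libraries. It had 261, 296 and 279 CPM in the cord MSU libraries and 6.62, 5.07 and 7.96 CPM in the cord PBS libraries. The groups did not overlap in either tissue, and the directions were opposite: Plin4 fell in the ankle, with 154 ± 22.3 CPM with MSU and 338 ± 71.2 CPM with PBS (SD, n = 3 each), and rose 42.5-fold in the cord (log2 difference -6.54, SE 0.26, edgeR adjusted p = 1.22e-08). Adipocyte markers (9 genes) summed to between 670.6 and 844.6 CPM in the ankle MSU libraries and between 928.3 and 1227 CPM in the ankle PBS libraries. In the cord they summed to between 19.2 and 25.7 CPM with MSU and between 14.2 and 15.7 CPM with PBS. The part of adipocytes in the Plin4 difference was not tested.

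Among 17 genes of fatty acid use and lipid droplets, 7 responses were lower and 1 higher in the ankle (0 to 3 higher as single libraries were left out). Over all genes 14.7% were lower and 10.2% higher. The median difference of the 17 was -0.55. Pnpla2, the triglyceride lipase ATGL, had 173, 178 and 162 CPM in the ankle MSU libraries and 159, 212 and 167 CPM in the ankle PBS libraries, with overlap. It had 127, 134 and 119 CPM in the cord MSU libraries and 37.1, 36.01 and 34.8 CPM in the cord PBS libraries, with no overlap (log2 difference -1.88, SE 0.15, edgeR adjusted p = 2.64e-06). Lpl, lipoprotein lipase, had 129.8, 109 and 66.3 CPM in the ankle MSU libraries and 221, 194 and 185 CPM in the ankle PBS libraries. It had 10.7, 15.1 and 12.6 CPM in the cord MSU libraries and 5.55, 6.05 and 6.83 CPM in the cord PBS libraries (log2 difference -2.04, SE 0.31, edgeR adjusted p = 0.000504), and its cord rise was not called without cord PBS library 1, cord PBS library 2 or cord MSU library 2 (highest adjusted p = 0.0922). Acadm, an enzyme of fatty acid oxidation, fell by 0.90 on the log2 scale in the ankle, with a cord change of 0.01 (log2 difference -0.91, SE 0.15, edgeR adjusted p = 0.00047).

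Clock genes more often had a lower than a higher response in the ankle, as all genes did (14.7% lower and 10.2% higher). Of 17 tested, 8 responses were lower and 3 higher in the ankle, with a median difference of -0.27. Hlf, a transcription factor of the circadian output, had 13.8, 11.2 and 11.8 CPM in the ankle MSU libraries and 42.5, 34.2 and 57.7 CPM in the ankle PBS libraries. It had 76.9, 61.99 and 77.2 CPM in the cord MSU libraries and 79.2, 68.8 and 72.7 CPM in the cord PBS libraries, with overlap (log2 difference -1.83, SE 0.23, edgeR adjusted p = 9.3e-05). Tef, a related factor, had log2 changes of -1.02 in the ankle and 0.39 in the cord (log2 difference -1.41, SE 0.15, edgeR adjusted p = 2.63e-05), and its cord call was lost in 9 of the 12 fits that left out a library. Bhlhe41, a clock repressor, had 14.98, 11.7 and 11.7 CPM in the ankle MSU libraries and 24.8, 16.9 and 23.2 CPM in the ankle PBS libraries. It had 59.1, 65.5 and 59.5 CPM in the cord MSU libraries and 40.6, 38.3 and 34.2 CPM in the cord PBS libraries, with no overlap in either tissue and opposite directions (log2 difference -1.45, SE 0.21, edgeR adjusted p = 0.000187). Bhlhe40, its close relative, had log2 changes of 1.66 and 0.46 in the ankle and the cord, and a higher response in the ankle (log2 difference 1.20, SE 0.15, edgeR adjusted p = 7.41e-05). The time of day at which tissue was taken is not given in the sources used here.

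The selectin genes of vessels had larger log2 changes in the cord. Selp (ENSMUSG00000026580), the gene of P-selectin, which captures leukocytes on activated endothelium, had 125, 121 and 139 CPM in the ankle MSU libraries and 8.28, 17.4 and 10.04 CPM in the ankle PBS libraries. It had 23.6, 35.6 and 24.1 CPM in the cord MSU libraries and 0, 0.0757 and 0.3 CPM in the cord PBS libraries. It rose in both tissues without overlap, and the cord PBS libraries held 5 counts in all, so the size of the cord change depends on the prior count (log2 difference -4.49, SE 0.76, edgeR adjusted p = 0.00158). Sele, the gene of E-selectin, had 56.7, 40.1 and 63.3 CPM in the ankle MSU libraries and 10.03, 15.1 and 9.45 CPM in the ankle PBS libraries. It had 14.2, 20.8 and 8.51 CPM in the cord MSU libraries and 0.253, 0.227 and 0 CPM in the cord PBS libraries, with 8 counts in all cord PBS libraries (log2 difference -4.14, SE 0.73, edgeR adjusted p = 0.00172). In both genes the MSU level stayed higher in the ankle than in the cord.

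Among the 16 endothelial adhesion and activation genes 3 responses were higher and 3 lower in the ankle, against 10.2% and 14.7% of all genes. Their median difference was -0.17. The third lower one was Esm1, an endothelial proteoglycan gene, with 9.19, 7.65 and 4.45 CPM in the ankle MSU libraries and 15.2, 14.5 and 8.86 CPM in the ankle PBS libraries. It had 3.02, 2.35 and 0.81 CPM in the cord MSU libraries and 0.0505, 0.303 and 0.15 CPM in the cord PBS libraries, with 7 counts in the cord PBS libraries (log2 difference -4.53, SE 0.79, edgeR adjusted p = 0.00115). Tek, the angiopoietin receptor of endothelium, had 27.4, 29.96 and 28.9 CPM in the ankle MSU libraries and 43.4, 48.3 and 45.7 CPM in the ankle PBS libraries. It had 6.29, 5.20 and 6.80 CPM in the cord MSU libraries and 26.3, 19.4 and 16.9 CPM in the cord PBS libraries, and it fell in both tissues, more so in the cord (log2 difference 1.10, SE 0.21, edgeR adjusted p = 0.00186). Endothelial markers (8 genes) summed to between 154.1 and 219 CPM in the cord MSU libraries and between 210.9 and 316.8 CPM in the cord PBS libraries, and their part in these differences was not tested. Icam1, the ligand of leukocyte integrins, rose by like amounts in both tissues.

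Barrier and transport genes of brain vessels numbered 12, with 2 responses higher and 2 lower in the ankle (1 lower in 9 of the 12 fits that left out a library). Over all genes 10.2% were higher and 14.7% lower, and the share of lower responses here was near that. The median difference of the 12 was -0.19. Slc16a1, a lactate transporter, had 262, 228 and 286 CPM in the ankle MSU libraries and 58.7, 60.4 and 62.4 CPM in the ankle PBS libraries. It had 55.6, 84.3 and 66.3 CPM in the cord MSU libraries and 87.8, 84.1 and 98.2 CPM in the cord PBS libraries, with the highest MSU library of the cord above the lowest PBS library (log2 difference 2.49, SE 0.19, edgeR adjusted p = 1.98e-06). Slc7a5, an amino acid transporter, had a log2 difference of 1.55 (adjusted p = 4.49e-05). Mfsd2a, the lipid transporter of the blood-brain barrier, had 15.8, 22.2 and 23.7 CPM in the ankle MSU libraries and 18.7, 12.7 and 14.1 CPM in the ankle PBS libraries. It had 92.1, 105 and 80.4 CPM in the cord MSU libraries and 30.1, 28.9 and 35.7 CPM in the cord PBS libraries, and it rose in the cord (log2 difference -1.13, SE 0.24, edgeR adjusted p = 0.00406). Lsr, a junction gene, had a log2 difference of -0.97 (adjusted p = 0.0411) that was lost in 9 of the 12 fits that left out a library (highest adjusted p = 0.0967).

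Heat shock and unfolded protein response genes gave differences both ways. Of 16 tested, 7 responses were higher and 4 lower in the ankle, against 10.2% and 14.7% of all genes, with a median difference of 0.16. Hspa1a, the inducible HSP70, had 18.3, 31.1 and 23.7 CPM in the ankle MSU libraries and 28.8, 26.9 and 27.1 CPM in the ankle PBS libraries, with overlap. It had 18.9, 15.2 and 16.8 CPM in the cord MSU libraries and 4.49, 6.66 and 5.33 CPM in the cord PBS libraries, so that it rose in the cord (log2 difference -1.82, SE 0.26, edgeR adjusted p = 0.000217). Hsp90aa1, the inducible HSP90, had log2 changes of 1.61 in the ankle and 0.18 in the cord (log2 difference 1.43, SE 0.16, edgeR adjusted p = 3.59e-05). Hspd1, a mitochondrial chaperone, had log2 changes of 1.19 and 0.18 in the ankle and the cord (log2 difference 1.01, SE 0.13, edgeR adjusted p = 8.84e-05). Asns, the asparagine synthetase of the amino acid response, had 51.6, 54.8 and 66.5 CPM in the ankle MSU libraries and 22.2, 23.2 and 22.98 CPM in the ankle PBS libraries. It had 87.97, 95.005 and 88.2 CPM in the cord MSU libraries and 88.6, 87.8 and 89.3 CPM in the cord PBS libraries, with overlap (log2 difference 1.31, SE 0.13, edgeR adjusted p = 1.86e-05).

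Among 20 immediate early genes, 4 responses were higher in the ankle (10.2% of all genes) and 3 lower, a share near the 14.7% of all genes. Their median difference was -0.05. The 4 became 2 without cord PBS library 2, and the 3 became 1 without ankle MSU library 1, cord PBS library 2 or cord MSU library 1. Maff, a small Maf transcription factor, had 54.7, 60.1 and 70.8 CPM in the ankle MSU libraries and 23.2, 37.9 and 32.5 CPM in the ankle PBS libraries. It had 21.1, 20.97 and 18.2 CPM in the cord MSU libraries and 2.12, 2.95 and 2.93 CPM in the cord PBS libraries and rose in both tissues, more so in the cord (log2 difference -1.94, SE 0.26, edgeR adjusted p = 0.000127). Ier3, a stress-response gene, had log2 changes of 2.46 in the ankle and 0.91 in the cord (log2 difference 1.55, SE 0.25, edgeR adjusted p = 0.000615). Nr4a3, a nuclear receptor gene, had log2 changes of 2.73 and 0.52 in the ankle and the cord (log2 difference 2.21, SE 0.45, edgeR adjusted p = 0.00375), and the difference was not called by limma-voom, alone (adjusted p = 0.0704) or with the description number as a block (adjusted p = 0.0667). Myc had a log2 difference of 0.76 (adjusted p = 0.017), which was not called without cord PBS library 2 (adjusted p = 0.0547) or by limma-voom (adjusted p = 0.0945).

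Pain mediators and their receptors (23 tested) gave 5 higher responses in the ankle (3 without cord PBS library 1) and 3 lower. Over all genes 10.2% were higher and 14.7% lower, and the share of lower responses here was near that. The median difference of the 23 was -0.14. Tac1, the substance P precursor, had 1.62, 1.93 and 1.51 CPM in the ankle MSU libraries and 0.272, 0.3 and 0.46 CPM in the ankle PBS libraries. It had 23.1, 33.3 and 23.7 CPM in the cord MSU libraries and 26.2, 23.98 and 30.8 CPM in the cord PBS libraries, with overlap (log2 difference 2.39, SE 0.33, edgeR adjusted p = 0.000143). The ankle libraries held 85 Tac1 counts with MSU and 27 with PBS. Calca, the CGRP precursor, had 134 ankle counts with MSU and 30 with PBS and a log2 difference of 2.70 (SE 0.63, edgeR adjusted p = 0.0084), which was not called by limma-voom with a variance per tissue. Markers of dorsal root ganglion neurons (11 genes) summed to between 11.66 and 14.94 CPM in the ankle MSU libraries and between 13.72 and 19.96 CPM in the ankle PBS libraries, and to between 97.91 and 120.9 CPM in the cord MSU libraries and between 75.35 and 97 CPM in the cord PBS libraries, and their part in these results was not tested. Piezo2, the touch-sensing ion channel, had 3.47, 2.65 and 3.92 CPM in the ankle MSU libraries and 14.5, 14.3 and 16.7 CPM in the ankle PBS libraries. It had 8.25, 10.4 and 13.4 CPM in the cord MSU libraries and 10.6, 12.1 and 10.7 CPM in the cord PBS libraries, with overlap (log2 difference -2.12, SE 0.28, edgeR adjusted p = 9.45e-05). Penk, the enkephalin precursor, had log2 changes of -1.51 in the ankle and 0.25 in the cord (log2 difference -1.76, SE 0.22, edgeR adjusted p = 8.75e-05). Ntrk2, the receptor for brain-derived neurotrophic factor, had log2 changes of 0.93 and 0.13 in the ankle and the cord (log2 difference 0.80, SE 0.15, edgeR adjusted p = 0.00162).

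Prostaglandin and leukotriene genes (18 tested) gave 5 higher (10.2% of all genes) and 3 lower responses in the ankle, the latter a share near the 14.7% of all genes. Their median difference was -0.04. Ptgs2, the inducible cyclooxygenase, had 101, 196 and 414 CPM in the ankle MSU libraries and 2.77, 4.65 and 4.60 CPM in the ankle PBS libraries. It had 44.01, 44.02 and 24.7 CPM in the cord MSU libraries and 2.58, 2.42 and 1.35 CPM in the cord PBS libraries. It rose in both tissues, with a log2 difference of 1.80 (95% interval -0.13 to 3.74, adjusted p = 0.166) that passed without ankle MSU library 1 (adjusted p = 0.0424). Ptges, the inducible prostaglandin E synthase, had 185, 218 and 239 CPM in the ankle MSU libraries and 49.2, 41.2 and 43.6 CPM in the ankle PBS libraries. It had 7.19, 12.1 and 8.42 CPM in the cord MSU libraries and 4.65, 6.05 and 4.65 CPM in the cord PBS libraries (log2 difference 1.40, SE 0.25, edgeR adjusted p = 0.00103). Ptges2 and Ptges3, other prostaglandin E synthases, had log2 differences of 0.82 and 0.88 (adjusted p = 0.00198 and 0.000859). Alox5, the leukotriene-forming lipoxygenase, had 26.3, 22.2 and 27.6 CPM in the ankle MSU libraries and 38.6, 35.02 and 34.3 CPM in the ankle PBS libraries. It had 3.60, 5.42 and 2.57 CPM in the cord MSU libraries and 1.57, 1.66 and 1.80 CPM in the cord PBS libraries, with no overlap in either tissue and the MSU libraries lower in the ankle and higher in the cord (log2 difference -1.70, SE 0.31, edgeR adjusted p = 0.00107). Neither of its within-tissue calls held in every fit that left out a library (highest adjusted p = 0.123 in the ankle and 0.0539 in the cord).

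Among 18 Toll-like receptors and adaptors, 4 responses were higher and 1 lower in the ankle (2 lower without cord PBS library 2). Over all genes 10.2% were higher and 14.7% lower. The median difference of the 18 was 0.45. Tlr2, which senses bacterial lipoproteins, rose in both tissues, by 3.13 on the log2 scale in the ankle and 1.10 in the cord (log2 difference 2.04, SE 0.25, edgeR adjusted p = 7.73e-05). Irak2, a kinase downstream of these receptors, had log2 changes of 1.89 and 0.37 in the ankle and the cord (log2 difference 1.53, SE 0.18, edgeR adjusted p = 4.56e-05). Tlr3, the sensor of double-stranded RNA, had 24.6, 21.95 and 25.2 CPM in the ankle MSU libraries and 12.95, 14.4 and 13.1 CPM in the ankle PBS libraries. It had 15.97, 18.8 and 18.4 CPM in the cord MSU libraries and 22.8, 20.96 and 29.9 CPM in the cord PBS libraries, with the MSU libraries below the PBS libraries (log2 difference 1.30, SE 0.20, edgeR adjusted p = 0.000303). The cord change of Tlr3 did not pass (adjusted p = 0.0665). Tlr5, the flagellin receptor, had log2 changes of -0.89 in the ankle and 0.83 in the cord (log2 difference -1.72, SE 0.28, edgeR adjusted p = 0.000571), and its cord call was lost in 7 of the 12 fits that left out a library.

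Metallothionein and zinc transport genes (8 tested) gave 3 higher responses in the ankle and none lower, against 10.2% and 14.7% of all genes. Their median difference was 1.10. Mt1, a metal-binding protein, had 2290.4, 1683 and 2793 CPM in the ankle MSU libraries and 76.5, 236 and 114 CPM in the ankle PBS libraries. It had 803, 974 and 669 CPM in the cord MSU libraries and 169, 157 and 164 CPM in the cord PBS libraries, and it rose in both tissues. Its log2 difference of 1.67 (adjusted p = 0.0391) was not called in 9 of the 12 fits that left out a library (highest adjusted p = 0.0962). Slc39a8, a zinc importer, had 58.5, 65.2 and 69.1 CPM in the ankle MSU libraries and 12.7, 23.5 and 24.6 CPM in the ankle PBS libraries. It had 4.23, 4.71 and 4.19 CPM in the cord MSU libraries and 8.18, 5.45 and 6.83 CPM in the cord PBS libraries, with the MSU libraries below the PBS libraries (log2 difference 2.33, SE 0.32, edgeR adjusted p = 0.000165). The cord change of Slc39a8 did not pass (adjusted p = 0.152). Slc39a10, a related importer, had a log2 difference of 1.27 (adjusted p = 0.00145).

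Fibrinolysis and coagulation genes (12 tested) gave 2 lower responses in the ankle, a share near the 14.7% of all genes, and none higher (1 higher without ankle PBS library 2, ankle MSU library 3, cord PBS library 1 or cord MSU library 2), with a median difference of -0.18. These were F3, tissue factor (log2 difference -1.05, SE 0.26, edgeR adjusted p = 0.0101; ankle call lost without ankle PBS library 2 or 3), and Plat, the tissue plasminogen activator (log2 difference -0.84, SE 0.19, edgeR adjusted p = 0.00621). For all 20 cytosolic ribosomal protein genes tested the 95% interval of the difference lay inside 2-fold, as it did for 40.2% of all genes. In the cord 4 of them rose, against 4.41% of all genes, and this count lay between 0 and 11 as single libraries were left out. Their median difference was -0.22, 18 of the 20 differences were below 0, against 55.6% of all genes, and 1 was called, Rps19 (log2 difference -0.58, SE 0.18, edgeR adjusted p = 0.0277). The count of lower responses was 6 without ankle MSU library 1, 7 without cord MSU library 3 and 0 without 8 others of the libraries. Gfap, the filament protein gene of astrocytes, had 1124, 2588 and 1416 CPM in the cord MSU libraries and 554, 1003 and 999 CPM in the cord PBS libraries, while the ankle held 5.79 CPM or less in every library. Its log2 difference of 2.25 (adjusted p = 0.038) was lost in 8 of the 12 fits that left out a library. Astrocyte markers (10 genes) summed to between 181.4 and 224.4 CPM in the ankle MSU libraries and between 240.7 and 249.8 CPM in the ankle PBS libraries, and to between 7122 and 9324 CPM in the cord MSU libraries and between 6093 and 6890 CPM in the cord PBS libraries, and their part was not tested.

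Opposite calls in the tissues were made for 141 genes (0.697% of those tested). For 25 the ankle rose and the cord fell, and for 116 the ankle fell and the cord rose. All 141 kept opposite signs and a called difference whichever library was left out, but only between 60 and 124 of them were called in both tissues again. Counted afresh, the opposite calls numbered 64 without cord PBS library 1, 72 without cord PBS library 2, 88 without cord MSU library 2 and 91 without cord MSU library 1. Car4, a membrane carbonic anhydrase, had 22.9, 38.3 and 42.8 CPM in the ankle MSU libraries and 1.20, 1.13 and 0.788 CPM in the ankle PBS libraries. It had 5.45, 5.37 and 4.86 CPM in the cord MSU libraries and 15.4, 11.4 and 8.56 CPM in the cord PBS libraries, with no overlap in either tissue (log2 difference 6.18, SE 0.38, edgeR adjusted p = 4.44e-07). Its cord fall was not called without cord PBS library 1 (adjusted p = 0.0718).

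Among the other genes that were higher with MSU in the ankle and lower in the cord were Adamts5, another aggrecanase, Vegfa, the copine gene Cpne2, the TGF-beta receptor gene Tgfbr1 and the transcription factor gene Zeb2. Adamts5 had 415, 293 and 382 CPM in the ankle MSU libraries and 134, 149 and 130.2 CPM in the ankle PBS libraries. It had 26.5, 22.5 and 26.6 CPM in the cord MSU libraries and 43.99, 33.4 and 37.4 CPM in the cord PBS libraries (log2 difference 2.01, SE 0.19, edgeR adjusted p = 9.53e-06). Vegfa had 161, 188 and 185 CPM in the ankle MSU libraries and 102, 91.3 and 103 CPM in the ankle PBS libraries. It had 77.7, 65.3 and 67.8 CPM in the cord MSU libraries and 109.9, 86.3 and 104 CPM in the cord PBS libraries, and neither gene's groups overlapped in either tissue (log2 difference 1.36, SE 0.15, edgeR adjusted p = 2.94e-05). Zeb2 kept its cord call whichever library was left out (log2 difference 1.14, SE 0.12, edgeR adjusted p = 2.23e-05), while the cord calls of Adamts5, Cpne2, Tgfbr1 and Vegfa did not (highest adjusted p = 0.1, 0.195, 0.0519 and 0.0676). The differences of Cpne2 and Tgfbr1 were 1.78 and 1.08.

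The genes that fell in the ankle and rose in the cord kept both calls whichever library was left out, for each of the 6 named. Besides Plin4 they were Mxd4, Mettl7a1, Arhgef10, Dmpk and Tgfb3. Mxd4, a partner of MAX that opposes MYC, had 94.6, 99.6 and 86.8 CPM in the ankle MSU libraries and 167, 171 and 150.2 CPM in the ankle PBS libraries. It had 169, 165 and 165 CPM in the cord MSU libraries and 73.5, 72.2 and 75.2 CPM in the cord PBS libraries (log2 difference -1.97, SE 0.11, edgeR adjusted p = 2.15e-07). Mettl7a1, a methyltransferase-like gene of lipid droplets and the endoplasmic reticulum, had 24.3, 19.2 and 24.4 CPM in the ankle MSU libraries and 81.7, 79.98 and 70.8 CPM in the ankle PBS libraries. It had 82.8, 88.1 and 81.4 CPM in the cord MSU libraries and 37.3, 37.9 and 47.3 CPM in the cord PBS libraries (log2 difference -2.82, SE 0.17, edgeR adjusted p = 2.74e-07). In both genes the groups were apart in both tissues. Tgfb3, a TGF-beta ligand, had log2 changes of -1.65 in the ankle and 0.83 in the cord (log2 difference -2.48, SE 0.18, edgeR adjusted p = 1.42e-06). Dmpk, a kinase gene of muscle, had log2 changes of -1.71 and 0.67 in the ankle and the cord (log2 difference -2.38, SE 0.16, edgeR adjusted p = 8.16e-07), and Arhgef10, a guanine nucleotide exchange factor gene, log2 changes of -1.30 and 0.52 (log2 difference -1.82, SE 0.12, edgeR adjusted p = 4.71e-07). Skeletal muscle markers (13 genes) summed to between 2104 and 2956 CPM in the ankle MSU libraries and between 3134 and 3656 CPM in the ankle PBS libraries. In the cord they summed to between 108.6 and 178.8 CPM with MSU and between 110.6 and 422.8 CPM with PBS, highest in cord PBS library 2, and their part in the Dmpk difference was not tested.

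**Figure D4:**
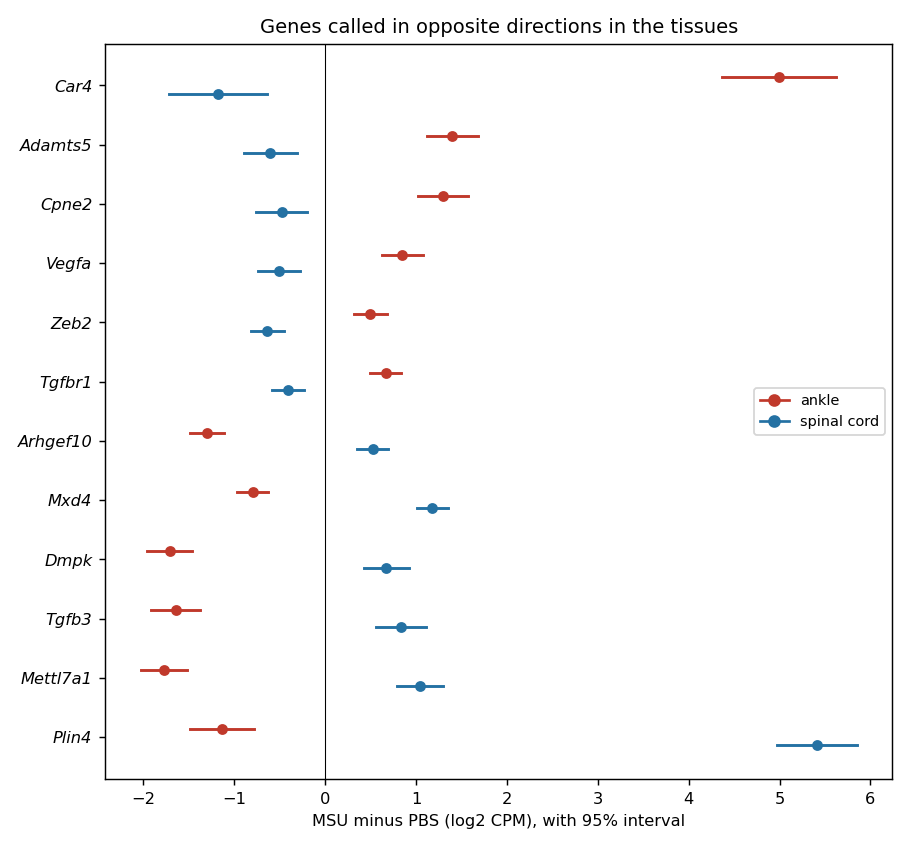
The log2 change with MSU and its 95% interval are drawn for the ankle (upper of each pair) and the spinal cord (lower) for 12 genes called in opposite directions. Car4 has the largest positive difference, 6.18, and Plin4 the largest negative one, -6.54.

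Cmtm3, Sytl1 and Bok were also named for their cord changes. Cmtm3, a membrane protein gene, had 70.03, 62.7 and 69.3 CPM in the ankle MSU libraries and 70.2, 66.5 and 64.9 CPM in the ankle PBS libraries, with overlap. It had 37.8, 34.5 and 33.2 CPM in the cord MSU libraries and 11.2, 12.3 and 12.3 CPM in the cord PBS libraries (log2 difference -1.56, SE 0.13, edgeR adjusted p = 3.62e-06). Sytl1, a synaptotagmin-like gene, had 18.3, 24.2 and 17.1 CPM in the ankle MSU libraries and 68.5, 71.5 and 71.4 CPM in the ankle PBS libraries. It had 1.16, 1.20 and 1.35 CPM in the cord MSU libraries and 0.202, 0 and 0.15 CPM in the cord PBS libraries, with 6 counts in all cord PBS libraries (log2 difference -5.04, SE 0.43, edgeR adjusted p = 4.45e-06). Bok, a BCL2 family gene, had log2 changes of -0.91 in the ankle and 0.93 in the cord, of opposite sign and of about the same size (log2 difference -1.85, SE 0.16, edgeR adjusted p = 5.24e-06). Lpar3, a lysophosphatidic acid receptor gene, fell in the ankle and rose in the cord, with log2 changes of -1.20 and 2.67 (log2 difference -3.86, SE 0.48, edgeR adjusted p = 6.88e-05).

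Most of the rest of the 12 most negative differences, under the same limit of 1 CPM, were of genes with few counts in the ankle MSU libraries. Lgi1, a secreted neuronal protein gene, had 0.158, 0.0715 and 0 CPM in the ankle MSU libraries and 1.32, 1.76 and 1.64 CPM in the ankle PBS libraries, which was 5 counts against 130. It had 76.2, 76.2 and 76.1 CPM in the cord MSU libraries and 76.2, 78.8 and 73.7 CPM in the cord PBS libraries (log2 difference -3.89, SE 0.37, edgeR adjusted p = 9.44e-06). Tmem178b had 4 ankle counts with MSU and 97 with PBS, Plk5, a polo-like kinase gene, 5 with MSU and 86 with PBS, Sprn, a prion-like gene, 15 with MSU and 348 with PBS, and Mettl7a3 4 with MSU and 107 with PBS. Their log2 differences were -3.65, -3.78, -3.73 and -4.25 and depend on the prior count, as those of few counts do. Pkhd1l1, a large membrane protein gene, had 0.789, 1.36 and 0.891 CPM in the ankle MSU libraries and 8.44, 7.81 and 8.73 CPM in the ankle PBS libraries. Its cord counts were 80 with MSU and 39 with PBS (log2 difference -3.73, SE 0.42, edgeR adjusted p = 3.17e-05).

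A like size of response was counted for 297 genes (1.47%). These were called in the same direction in both tissues, with the whole 95% interval of the difference inside 2-fold. That interval is approximate for differences near 0, as for Tfpi2 below. The count was 156 without cord PBS library 1 and 167 without cord PBS library 2. The 9 described here are among the 10 with the largest mean change, and each rose in both tissues. Icam1 (ENSMUSG00000037405) had 185, 184 and 195 CPM in the ankle MSU libraries and 36.4, 37.3 and 29.2 CPM in the ankle PBS libraries. It had 29.2, 26.01 and 23.1 CPM in the cord MSU libraries and 3.84, 4.69 and 2.40 CPM in the cord PBS libraries. It rose 5.47-fold in the ankle and 7.13-fold in the cord (log2 difference -0.38, 95% interval -0.88 to 0.11). Bcl3 had 137, 134 and 151 CPM in the ankle MSU libraries and 23.1, 21.5 and 18.3 CPM in the ankle PBS libraries. It had 9.05, 13.4 and 9.01 CPM in the cord MSU libraries and 0.808, 1.51 and 1.65 CPM in the cord PBS libraries (log2 difference -0.29, 95% interval -0.92 to 0.34). Its level with PBS was lower in the cord, and the ratio was alike.

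Junb, an AP-1 transcription factor gene, had 601, 739.7 and 815 CPM in the ankle MSU libraries and 131, 248 and 152 CPM in the ankle PBS libraries. It had 67.7, 67.2 and 51.1 CPM in the cord MSU libraries and 15.5, 14.6 and 14.2 CPM in the cord PBS libraries (log2 difference -0.05, 95% interval -0.70 to 0.60). Xdh encodes xanthine oxidoreductase, the enzyme that makes urate, and had 816, 955 and 1103 CPM in the ankle MSU libraries and 204, 279.9 and 191 CPM in the ankle PBS libraries. It had 49.9, 49.7 and 57.4 CPM in the cord MSU libraries and 16.6, 13.6 and 9.46 CPM in the cord PBS libraries (log2 difference 0.12, 95% interval -0.47 to 0.70). Every MSU library was above every PBS library for these genes in both tissues. Gadd45g, a growth arrest gene, had a log2 difference of 0.00 (95% interval -0.85 to 0.85) and Fgr, a myeloid kinase gene, one of -0.09 (95% interval -0.79 to 0.60). Phyhd1, Rnf125 and Tfpi2 had log2 differences of 0.07, 0.07 and -0.02. For Tfpi2 the SE of the difference (0.37) was smaller than that of the cord change alone (0.49). The interval of the Tfpi2 difference is therefore too narrow, and like size was not shown for it. The cord call of Tfpi2 was lost without cord PBS library 1, cord PBS library 3 or cord MSU library 2 (highest adjusted p = 0.14).

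**Figure D5:**
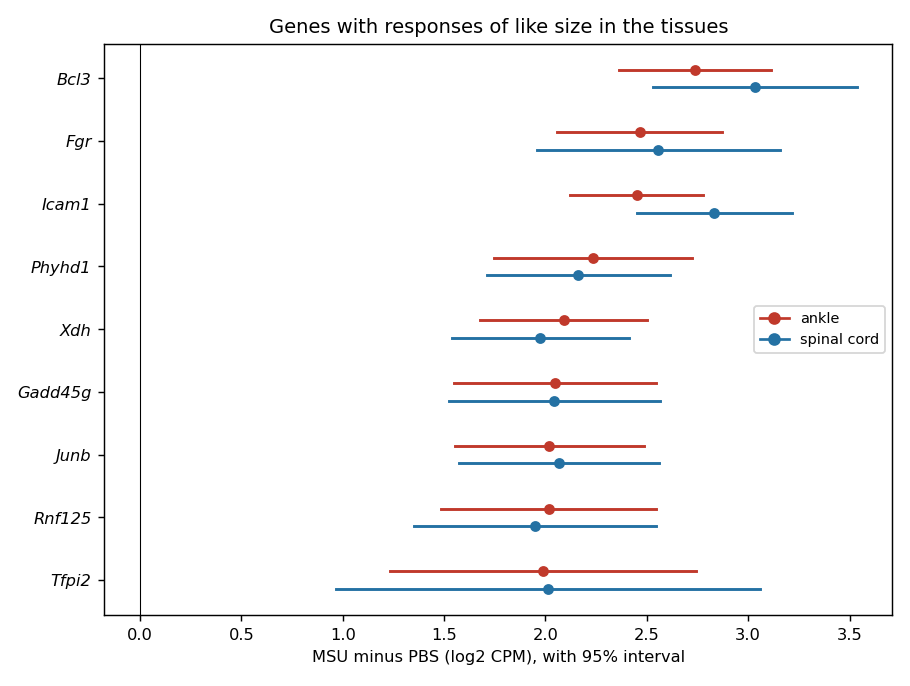
The log2 change with MSU and its 95% interval are drawn for the ankle (upper of each pair) and the spinal cord (lower). Shown are 9 of the 10 genes counted as of like size with the largest mean change. For Tfpi2 like size was not shown. All points lie between 1.95 and 3.03 on the log2 scale, and the paired intervals overlap for every gene.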

How the data were processed

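Bulk RNA sequencing libraries of whole ankle joint and spinal cord were compared. Per the labels' protocols, TRIzol was used for total RNA, and a VAHTS Universal V6 kit for MGI sequencing made the mRNA libraries. The submitters' processing notes name HISAT2, HTSeq 0.11.3, DESeq2 and the mouse build mm39, while the annotation and strand setting are not given in the sources used here. The deposited values are raw counts per Ensembl gene, 1 table per tissue, with 55359 genes each. A table of GENCODE names paired 52083 of the IDs with a symbol and left 3276 without one. Overlapping and antisense genes, and near-identical copies such as Saa3, Mettl7a1 and Mettl7a3, can share reads and are uncertain to that extent.

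The ankle and cord tables were joined by ID. TMM factors and CPM were computed here from the authors' counts. Genes were kept by filterByExpr with a minimum count of 10 and a minimum total of 15. One edgeR quasi-likelihood fit (edgeR 4.0.16, limma 3.58.1, R 4.3.3) over the 4 groups gave each tissue's log2 change (MSU minus PBS) and their difference (ankle minus cord). Adjusted p-values are Benjamini-Hochberg over all 20243 genes, with calls at 0.05. The SE is the size of the log2 value divided by the square root of F. Intervals built on that SE are approximate where the value is near 0 or counts are few. There the SE of a difference can depart from what the SEs of the tissues imply. Every adjusted p in the text is from this test unless another tool is named. The fit shares its dispersions between the tissues: fitted alone, the ankle had a biological coefficient of variation of 20.9% and the cord 11.0%. In simulated data, 5.97%, 31.3% and 74.2% of genes changed 1.5-, 2- and 4-fold in the difference were recovered, and 3 of 77 calls were false (19814 genes run). Only 67, 67 and 66 genes were changed there, in the ankle MSU libraries alone and with no other response. In the data 24.9% of genes were called on the difference, so these rates may not hold for the data. No pair of libraries of 1 group agreed within sampling noise.

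Named genes were the 12 largest called differences each way, the 6 opposite calls with the smallest p each way, the 8 larger cord changes with the smallest p, the 10 like-size genes with the largest mean change (each at 1 CPM or more in both tissues, with predicted gene models left out), up to 4 members with the smallest p from each of the 22 response lists, and a preset list. One gene under that rule is not reported here. Ifit1 and Ifit3 lie outside that rule and were chosen for their promoters after values were seen. The members and lists were chosen with earlier results of these data known. Alternatives were other scalings, filters, DESeq2 1.42.0, limma-voom, blocks, all 18 libraries and each library left out. Count ratios have exact 95% intervals, which cover counting error only. Promoters were searched with Python 3.11.15.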

Additional observations from a re-analysis of the deposited data

Results flagged for a closer look

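The 12 named genes called in opposite directions are listed for a closer look, since the test of the difference passed for each. Car4, Adamts5, Cpne2, Vegfa, Zeb2 and Tgfbr1 were higher with MSU in the ankle and lower in the cord, with ankle minus cord log2 differences of 6.18, 2.01, 1.78, 1.36, 1.14 and 1.08. Plin4, Mettl7a1, Tgfb3, Dmpk, Mxd4 and Arhgef10 were lower with MSU in the ankle and higher in the cord, with differences of -6.54, -2.82, -2.48, -2.38, -1.97 and -1.82.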

How the results depend on the processing

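No call on the difference changed sign under any alternative. Against a 1.5-fold difference, 615 genes were higher and 1103 lower in the ankle. Leaving out 1 library at a time gave 1572 to 1918 higher, 2482 to 3507 lower, 64 to 148 opposite and 156 to 292 like-size genes. Limma-voom with a variance per tissue gave 220 opposite genes, and leaving out cord PBS and cord MSU libraries 3, an alternative chosen after seeing the data, gave 70 opposite and 180 like-size genes. The replicate number as a block gave 2036 higher, 2901 lower, 147 opposite and 312 like-size genes. The number in the descriptions as a random block, fitted with limma-voom, gave 2068 higher, 2760 lower, 139 opposite and 220 like-size genes. Ankle and cord libraries of the same title number correlated at 0.00515 to 0.0546 in their deviations from group means, and those of different title numbers at -0.0483 to 0.014. Those of the same description number correlated at -0.00201 to 0.0333. These small values do not settle whether numbers mark shared animals, and the main fit took no pairs. Of 3725 named-gene results over all alternatives, 3578 kept their call, 95 lost it, 52 gained it and 0 reversed, and 109 of 149 genes never changed. Among them, limma-voom did not call the differences of Ccrl2, Csf2rb, Ccl11, Nr4a3, Myc, Lsr, Nlrp3 and Gfap (with the description block the same apart from Ccl11), no count filter those of Cxcl12, Ccl5, Ccl7, Mt1 and Gfap, all 18 libraries those of Lpl and Lsr, and DESeq2 or the replicate block that of Serpina3f, while DESeq2 called those of Il1b, Il6, Orm1 and Nfkbia. Of 1950 list counts, 215 moved by over 1.5 times. The cause of these changes was not tested. Genes with few counts in 1 group, such as Csf3, Il6 and Orm1, leave wide intervals. Those of Csf3 and Il6 are wider than the SEs of the tissues imply.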

Other observations

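The dorsal root ganglia of the same series, fitted on their own, gave values for the genes with opposite calls. Of the 116 genes that fell in the ankle and rose in the cord, 112 were tested in the ganglia, where 35 rose, 18 fell and 59 were not called (median log2 change 0.16). Of the 25 that rose in the ankle and fell in the cord, 0 rose in the ganglia, 10 fell and 15 were not called (median -0.23). Over all 17008 genes tested in the ganglia, 16.7% rose and 18.7% fell.

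Of the 8 genes named for a cord change larger in size, Plin4, Sytl1, Mxd4, Arrdc2 and Bok rose in the ganglia, while Pnpla2 (edgeR adjusted p = 0.0513), Cmtm3 (0.176) and Sgk3 (0.341) were not called. Of other genes lower in the ankle and higher in the cord, Mettl7a1 and Arhgef10 rose by 0.56 and 0.58 on the log2 scale (edgeR adjusted p = 0.000294 and 0.000207). Dmpk (0.195), Tgfb3 (0.998), Alox5, Bhlhe41, Lpl, Tef and Tlr5 were not called, and Lpar3 fell by 0.33 on the log2 scale (edgeR adjusted p = 0.0399). Plin4 averaged 207.4 ± 53 CPM in the ganglia with MSU and 4.17 ± 1.18 CPM with PBS (SD, n = 3 each; edgeR adjusted p = 0.00018). Selp averaged 39.3 ± 2.58 CPM with MSU and 0.63 ± 0.337 CPM with PBS (edgeR adjusted p = 6.43e-07), and Hif3a 18.4 ± 1.01 CPM with MSU and 2.54 ± 0.67 CPM with PBS (edgeR adjusted p = 4.94e-06). Mxd4 rose by 0.57 on the log2 scale (edgeR adjusted p = 0.000316). Isg15 rose by 1.34 (edgeR adjusted p = 0.000603).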
